A study of Capra hircus with 3 samples.

Results

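The genes described here are 10 members of the mammalian circadian clock, namely CLOCK, NPAS2, PER1, PER2, PER3, CRY1, CRY2, NR1D1, NR1D2 and DBP, in mammary gland tissue of lactating Laoshan dairy goats. They were chosen by name and found by their NCBI gene IDs. All 10 were present, each at 1 locus, among 13023 protein-coding genes at 50041 loci with deposited values. Tissue was taken surgically under xylazine anaesthesia from 5 goats, 4 years old and in the third lactation, on days 10 (early), 90 (peak) and 210 (late) after parturition. The RNA of the 5 goats was mixed in equal amounts to give 1 library per stage, and the stages differ in no genotype, diet or treatment that the labels give. The values are FPKM, which are fragment numbers divided by transcript length and by the mapped reads of the library, made by the authors with Cuffdiff. The hour of the day at which tissue was taken is not given by the labels, which state natural light, so clock phase and lactation stage cannot be told apart in these values. With 1 pooled library per stage there is no spread between replicates, no p-value is given and every difference below is without a replicate check. The reads behind each FPKM are unknown, so no counting interval can be given either.

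The circadian clock is a feedback loop that runs in nearly every cell. CLOCK, or its relative NPAS2, pairs with BMAL1 (gene ARNTL) and switches on the PER and CRY genes, whose proteins return to the nucleus and repress that pair. A second loop runs through the REV-ERB receptors encoded by NR1D1 and NR1D2, which repress ARNTL, CLOCK and NPAS2 against activation by the ROR receptors. DBP is a transcription factor driven by the first loop that passes the rhythm to output genes, and in the mammary gland clock genes are known to shift their expression between pregnancy and lactation.

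The 3 libraries are named by their labels, and 2 observations bear on those labels. The secretory epithelium markers CSN3, CSN1S1, LALBA, BTN1A1, XDH and LPO summed to 125230 FPKM in the early-labelled library, 33031 FPKM in the peak-labelled library and 73072 FPKM in the late-labelled library, where LALBA was listed at 0. Without LALBA the other 5 summed to 55179, 17817 and 73072 FPKM in the same order, so the order of the early- and late-labelled sums turns without it. In the FPKM that the study gives elsewhere for annotated lncRNAs, the differences between its L and P libraries run opposite to those between the columns labelled late and peak here. Its E to L differences followed peak over early by label (Pearson correlation 0.796 over 135 genes) and not late over early (-0.06). Its E to P differences followed late over early by label (0.479 over 67 genes) and not peak over early (-0.001). The labels were kept, and the comparisons of the 10 clock genes and of the other loop genes are also given with these columns exchanged. The most abundant locus of each library took 29.99%, 46.0% and 29.9% of the FPKM sum in the early-, peak- and late-labelled libraries. The luminal epithelial markers KRT8, KRT18, KRT19 (keratins) and EPCAM (an epithelial adhesion molecule) were present in each library and summed to between 614 and 701 FPKM. Leukocyte markers (PTPRC, CD3E, CD68 and MS4A1) summed to 21.3, 46.8 and 11.7 FPKM in the same order, with CD3E listed at 0 in the early- and peak-labelled libraries. In bulk tissue, fewer cells of a type and less RNA per cell cannot be told apart.

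The clock genes were expressed at low to middle levels. Their lowest, median and highest FPKM were 0.835, 7.25 and 13.0 in the early-labelled library, against a median of 7.0 FPKM over all protein-coding genes. In the peak-labelled library they were 0.951, 4.85 and 14.2 FPKM, against a median of 7.21 FPKM. In the late-labelled library they were 0.380, 8.15 and 12.1 FPKM, against a median of 6.78 FPKM. Thus 5, 4 and 5 of the 10 genes lay above the middle of all protein-coding genes in the early-, peak- and late-labelled libraries. NR1D2 had the highest FPKM and NR1D1 the lowest in each of the 3 libraries. The order in between was PER1, CLOCK, CRY2, DBP, CRY1, PER2, NPAS2 and PER3 in the early-labelled library. In the peak-labelled library it was DBP, CLOCK, CRY2, PER1, PER2, CRY1, PER3 and NPAS2. In the late-labelled library CLOCK came before CRY2, PER1, DBP, CRY1, PER2, NPAS2 and PER3. Which neighbours in these orders differ beyond replicate spread cannot be told with 1 library each.

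**Figure D1:**
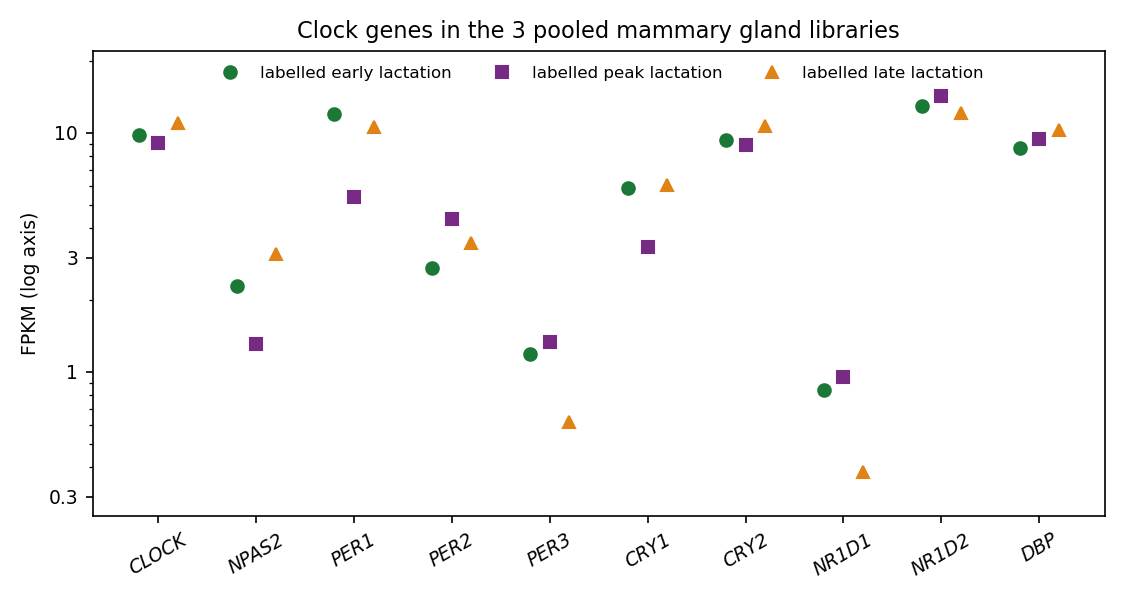
FPKM of the 10 clock genes (log axis) in the pooled libraries labelled early (circles), peak (squares) and late lactation (triangles), 1 point per library and no error bars since there are no replicates. CLOCK, CRY2, NR1D2 and DBP have 3 points close together, PER1, CRY1 and NPAS2 have their lowest point in the peak-labelled library, and PER3 and NR1D1 have theirs in the late-labelled library.

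CLOCK encodes the bHLH-PAS activator of the loop, on scaffold NW_005100696.1 from 43045137 to 43172145. It had 9.82 FPKM in the early-labelled, 9.06 FPKM in the peak-labelled and 10.95 FPKM in the late-labelled library. These levels lie within 1.21-fold of each other. NPAS2, its relative that can replace it as partner of BMAL1, is listed on scaffold NW_005102010.1 from 13 to 82876, so the locus starts 13 bases into its scaffold and sequence before that point was not analysed here. NPAS2 had 2.28, 1.31 and 3.10 FPKM in the early-, peak- and late-labelled libraries. The peak-labelled library was lowest and the late-labelled library highest, 2.37-fold apart. Within a library, CLOCK exceeded NPAS2 by 4.30-fold, 6.92-fold and 3.53-fold in FPKM in the early-, peak- and late-labelled libraries.

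The 3 PER genes, whose proteins repress the CLOCK and BMAL1 pair, did not follow a common pattern. PER1, on scaffold NW_005100886.1 from 3568352 to 3580268, is the family member best known for its rapid induction by glucocorticoids and cAMP. It had 12.0 FPKM in the early-labelled, 5.36 FPKM in the peak-labelled and 10.5 FPKM in the late-labelled library. The peak-labelled library was thus the low one, and the others lay within 1.14-fold of each other. PER2, on scaffold NW_005100644.1 from 120407 to 149214, is required for a stable rhythm in the mouse. It had 2.71, 4.35 and 3.46 FPKM in the same order, with the early-labelled library lowest and the peak-labelled library highest, 1.61-fold apart. PER3, on scaffold NW_005100847.1 from 2331903 to 2399282, had 1.19, 1.33 and 0.616 FPKM. Here the late-labelled library was low and the early- and peak-labelled libraries lay within 1.12-fold of each other. PER1 and PER2 were the 2 members whose ratios of peak over early and late over early lay farthest apart, at a distance of 1.92 log2 units. As a ratio of levels in 1 library, PER1 over PER2 was 4.43 in the early-labelled, 1.23 in the peak-labelled and 3.05 in the late-labelled library.

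The cryptochromes CRY1 and CRY2 are the partners of the PER proteins and the stronger repressors of the pair. CRY1, on scaffold NW_005100669.1 from 11268984 to 11358396, had 5.85, 3.32 and 6.04 FPKM in the early-, peak- and late-labelled libraries. As for PER1, the peak-labelled library was low and the other libraries lay close together, within 1.03-fold. CRY2, on scaffold NW_005100830.1 from 5345693 to 5381139, had 9.35, 8.85 and 10.7 FPKM, a range of 1.21-fold. CRY2 and CLOCK were the members with the most similar ratios, 0.05 log2 units apart. The level of CRY2 over that of CRY1 was 1.6, 2.67 and 1.77 in the early-, peak- and late-labelled libraries.

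The REV-ERB genes encode heme-binding nuclear receptors that repress transcription. NR1D1 (REV-ERB alpha) is listed on scaffold NW_005100886.1 from 16130120 to 16137850 with THRA as the neighbouring gene within 10000 nt, and its locus overlaps no other locus. It had 0.835 FPKM in the early-labelled, 0.951 FPKM in the peak-labelled and 0.380 FPKM in the late-labelled library, below 1 FPKM in all 3. The late-labelled library was the low one. NR1D2 (REV-ERB beta), on scaffold NW_005100954.1 from 7120091 to 7139353, had 13.0, 14.2 and 12.1 FPKM, a range of 1.17-fold. Its level exceeded that of NR1D1 by 15.5-fold, 14.9-fold and 31.9-fold in the early-, peak- and late-labelled libraries. DBP, the PAR bZIP activator of clock output, is listed on scaffold NW_005100871.1 from 3521296 to 3526654 and had 8.64, 9.39 and 10.3 FPKM. These values lie within 1.19-fold of each other. In other tissues DBP and NR1D1 are among the genes with the widest daily swings, and here only NR1D1 of these 2 was 2-fold apart between any pair of libraries. No other locus overlapped that of any of the 10 genes.

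**Figure D2:**
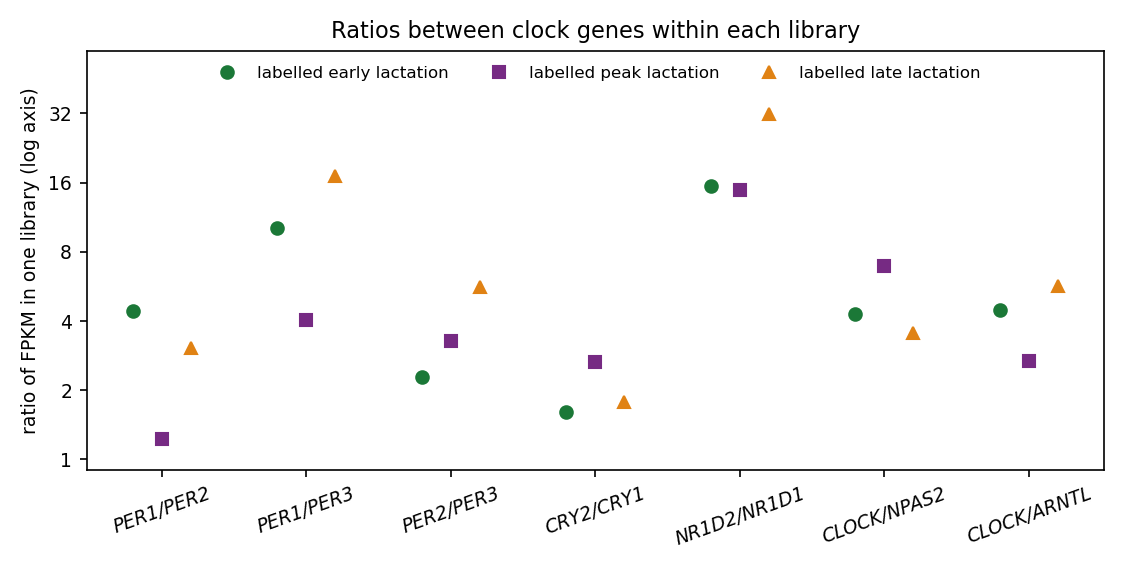
Ratio of the FPKM of clock genes to each other within a library (log axis) for the libraries labelled early (circles), peak (squares) and late lactation (triangles). The ratio of PER1 to PER2 is lowest in the peak-labelled library, at 1.23, and that of NR1D2 to NR1D1 is highest in the late-labelled library, at 31.9.

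From the early- to the peak-labelled library, PER1 alone of the 10 genes passed a 2-fold difference. The study set this fold for lncRNAs together with a limit on the false discovery rate, which is not applied here. PER1 was 2.24-fold higher in the early-labelled library, a log2 ratio of peak over early of -1.16. The same limit was passed by 17.7% of the 13020 protein-coding genes with a value above 0, with 6.8% of the 13020 higher in the early-labelled and 10.9% higher in the peak-labelled library, against 1 of 10 clock genes. CRY1 and NPAS2 came next, with log2 ratios of -0.82 and -0.80, and PER2 was the highest on the other side, at 0.68. The remaining 6 genes lay between -0.12 and 0.19. The median log2 ratio was 0.02 over the clock genes and 0.01 over all protein-coding genes, and the median size of the log2 ratio regardless of sign was 0.175 against 0.41. When each library was scaled to its FPKM sum without the 20 most abundant loci, every log2 ratio of this comparison moved by 0.24, and PER1 then had a log2 ratio of -0.92, under the limit. Of 9 glucocorticoid response genes with values, FKBP5 alone passed the limit in this comparison and was lower in the peak-labelled library like PER1, at 34.0, 16.6 and 34.0 FPKM in the early-, peak- and late-labelled libraries. ZBTB16, SGK1 and ERRFI1 had log2 ratios of the other sign, 0.78, 0.30 and 0.35, and the median of the list was -0.18. The part of these genes in the PER1 difference was not tested.

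From the early- to the late-labelled library, NR1D1 alone passed the limit, 2.20-fold higher in the early-labelled library with a log2 ratio of late over early of -1.13. Here 8.71% of 13004 protein-coding genes passed it, with 6.74% of the 13004 in the direction of NR1D1, against 1 of 10 clock genes. PER3 was just under the limit at -0.95. The remaining 8 genes lay between -0.19 and 0.44, with NPAS2 the highest. The median log2 ratio was 0.10 over the clock genes and -0.03 over all protein-coding genes, and the median size regardless of sign was 0.22 in both. The NR1D1 value rests on levels under 1 FPKM and was under the limit when 0.1 was added to each FPKM, at a log2 ratio of -0.96.

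From the peak- to the late-labelled library, 3 of 10 genes passed the limit, NPAS2 higher in the late-labelled library with a log2 ratio of 1.24 and PER3 and NR1D1 higher in the peak-labelled library with log2 ratios of late over peak of -1.11 and -1.32. The background was 25.9% of 13015 protein-coding genes, 8.56% higher in the late-labelled and 17.4% higher in the peak-labelled library, near the share of the clock genes. PER1 at 0.97 and CRY1 at 0.86 lay just under the limit. The remaining 5 genes lay between -0.33 and 0.27. The median log2 ratio was 0.20 over the clock genes and -0.03 over all protein-coding genes, and the median size regardless of sign was 0.60 against 0.50. With 1 added to each FPKM, 0 of the 10 genes passed the limit here, against 15.2% of all protein-coding genes. The comparisons share libraries and are not independent. Exchanging the columns labelled peak and late turns the sign of each of these ratios and gives NR1D1, instead of PER1, as the gene past the limit in peak over early.

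**Figure D3:**
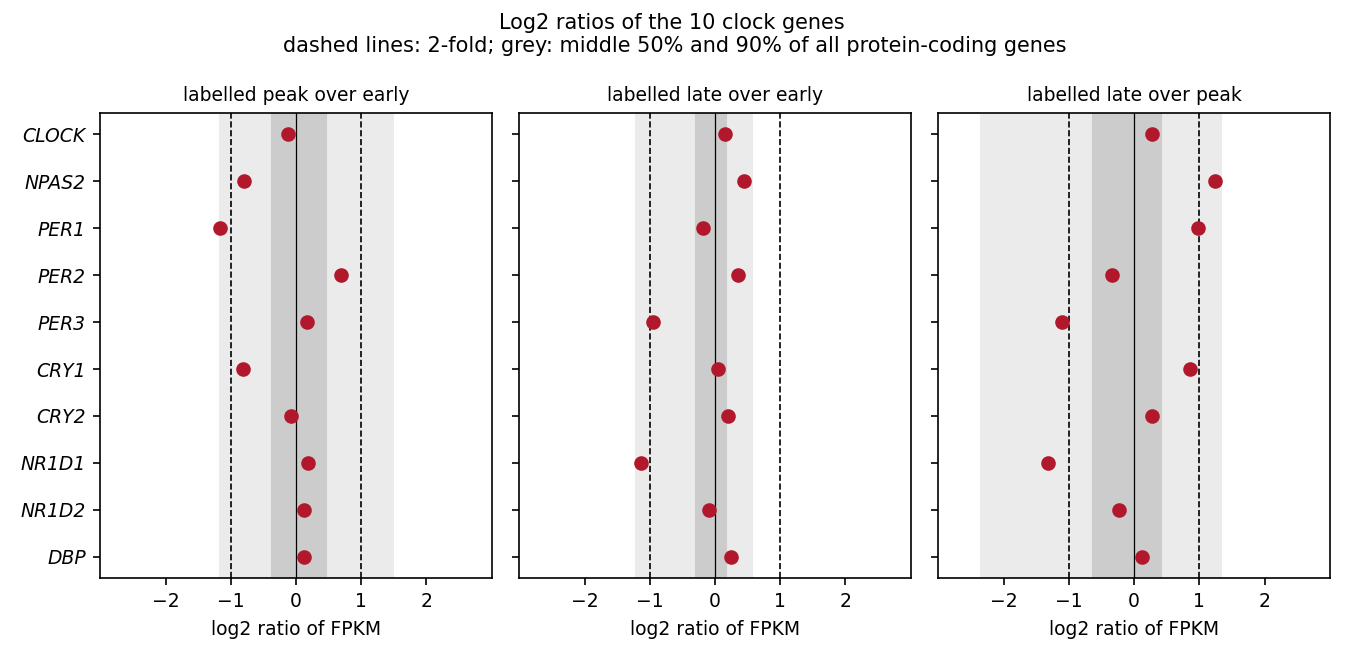
Log2 ratios of FPKM of the 10 clock genes (points) in the 3 comparisons by label, with dashed lines at a 2-fold difference and grey bands for the middle 50% (dark) and 90% (light) of all protein-coding genes. PER1 is past the line in peak over early, NR1D1 in late over early, and NPAS2, PER3 and NR1D1 in late over peak.

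Over the 3 comparisons together, 4 of the 10 genes (NPAS2, PER1, PER3 and NR1D1) passed the limit in at least 1, which is 40.0% against 29.3% of all protein-coding genes. CLOCK, PER2, CRY1, CRY2, NR1D2 and DBP stayed within 2-fold throughout. Among protein-coding genes whose mean FPKM lay in the range of the clock genes, 0.722 to 13.1 FPKM, the share past 2-fold was 17.1%, 8.10% and 25.8% for peak over early, late over early and late over peak. The lowest value of the 3 fell in the peak-labelled library for 5 genes (CLOCK, NPAS2, PER1, CRY1 and CRY2), in the late-labelled library for 3 (PER3, NR1D1 and NR1D2) and in the early-labelled library for 2 (PER2 and DBP). Of all protein-coding genes, 41.2%, 38.8% and 20% had their lowest value in these libraries. The highest value fell in the late-labelled library for CLOCK, NPAS2, CRY1, CRY2 and DBP, in the peak-labelled library for PER2, PER3, NR1D1 and NR1D2, and in the early-labelled library for PER1. The shares of all protein-coding genes with their highest value there were 32.9%, 43.7% and 23.4%. Small differences set some of these places. CLOCK and CRY2 were lowest in the early-labelled library under scaling to the FPKM sum, with or without the 20 most abundant loci, as was NR1D2 under the former, and DBP was highest in the peak-labelled library without those loci.

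The genes driven by the loop can be set against its activators inside each library, which removes the library's scale. The mean log2 FPKM of PER1, PER2, PER3, CRY1, CRY2, NR1D1, NR1D2 and DBP minus that of CLOCK and NPAS2 was -0.04 in the early-labelled, 0.32 in the peak-labelled and -0.53 in the late-labelled library. The late-labelled library had the lowest difference also with CLOCK alone as activator, at -1.44, against -1.10 and -1.08 in the early- and peak-labelled libraries. With ARNTL added to CLOCK and NPAS2, the early- and peak-labelled libraries were level, at 0.32 and 0.33, and the late-labelled library was at 0.00. Each of these versions keeps NR1D1 and PER3, which had 0.380 and 0.616 FPKM in the late-labelled library. Their log2 ratios of late over early were -1.13 and -0.95, while the other loop-driven genes lay between -0.19 and 0.35. In late over peak those other genes lay between -0.33 and 0.97, while CLOCK itself was at 0.27. The difference without NR1D1 and PER3 was not computed, so the low place of the late-labelled library is not shown apart from these genes.

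ARNTL, the gene of BMAL1 and partner of CLOCK, had 2.20 FPKM in the early-labelled, 3.39 FPKM in the peak-labelled and 1.93 FPKM in the late-labelled library. It was thus highest in the peak-labelled library, in which NPAS2 was lowest, with a log2 ratio of peak over early of 0.62. RORA, which activates ARNTL in competition with the REV-ERB receptors, was lower in the peak-labelled library. It had 33.7, 16.4 and 31.3 FPKM in the early-, peak- and late-labelled libraries. RORB, a relative known from retina and brain, had 0.376, 1.20 and 0.333 FPKM. The level of RORA over that of NR1D2 was 2.60, 1.15 and 2.58 in the 3 libraries.

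BHLHE40 and BHLHE41 (DEC1 and DEC2) encode repressors that compete with CLOCK and BMAL1 at the same promoter elements. BHLHE41 had 2.35, 6.51 and 1.27 FPKM in the early-, peak- and late-labelled libraries, and BHLHE40 had 8.50, 16.8 and 6.73 FPKM. Both were highest in the peak-labelled library, with log2 ratios of late over peak of -2.36 and -1.32. The listed locus of BHLHE40 spans 486947 nt and overlaps 3 other loci, so its FPKM is uncertain. CIART, a further repressor of the loop, had 0.738, 1.14 and 0.433 FPKM. The late-labelled library was lowest, as for PER3 and NR1D1 and for 38.8% of all protein-coding genes.

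HLF and TEF are PAR bZIP activators related to DBP, and NFIL3 is the repressor that competes with them. HLF had 11.1, 5.50 and 9.42 FPKM in the early-, peak- and late-labelled libraries, low in the peak-labelled library. TEF had 7.87, 7.32 and 7.54 FPKM and, like DBP, stayed close to level. NFIL3 had 14.4, 10.3 and 12.1 FPKM, and DBP over NFIL3 was 0.601, 0.912 and 0.845 in the same order.

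Of 12 other core and accessory loop genes (ARNTL, ARNTL2, RORA, RORB, TEF, HLF, NFIL3, BHLHE40, BHLHE41, CIART, CIPC and TIMELESS), 5 were past 2-fold in peak over early, against the 17.7% of all protein-coding genes. ARNTL2, RORB and BHLHE41 were higher in the peak-labelled library and RORA and HLF were lower. Their median log2 ratio of peak over early was 0.63, against 0.01 over all protein-coding genes. In late over early, 0 of the 12 were past the limit (background 8.71%). In late over peak, 5 were (background 25.9%), namely ARNTL2, RORB, BHLHE40, BHLHE41 and CIART, each higher in the peak-labelled library, with a median log2 ratio of late over peak of -0.80 for the list and -0.03 for all protein-coding genes. ARNTL2, a relative of ARNTL, had 0.265, 1.24 and 0.520 FPKM. With 1 added to each FPKM, 2 genes of this list were past the limit in peak over early and 2 in late over peak. The shares of all protein-coding genes were then 9.17% and 15.2%. Under scaling to the FPKM sum without the 20 most abundant loci, RORA and HLF were under the limit in peak over early while BHLHE40 and TIMELESS passed it. In late over peak 7 genes passed it, with ARNTL and TIMELESS added. Under this scaling the shares of all protein-coding genes were 20.6% in peak over early and 27.4% in late over peak. The peak-labelled library also had the highest leukocyte marker sum (46.8 FPKM, of which PTPRC had 39.9 FPKM) and the lowest secretory marker sum. The part of these markers in the loop gene differences was not tested.

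**Figure D4:**
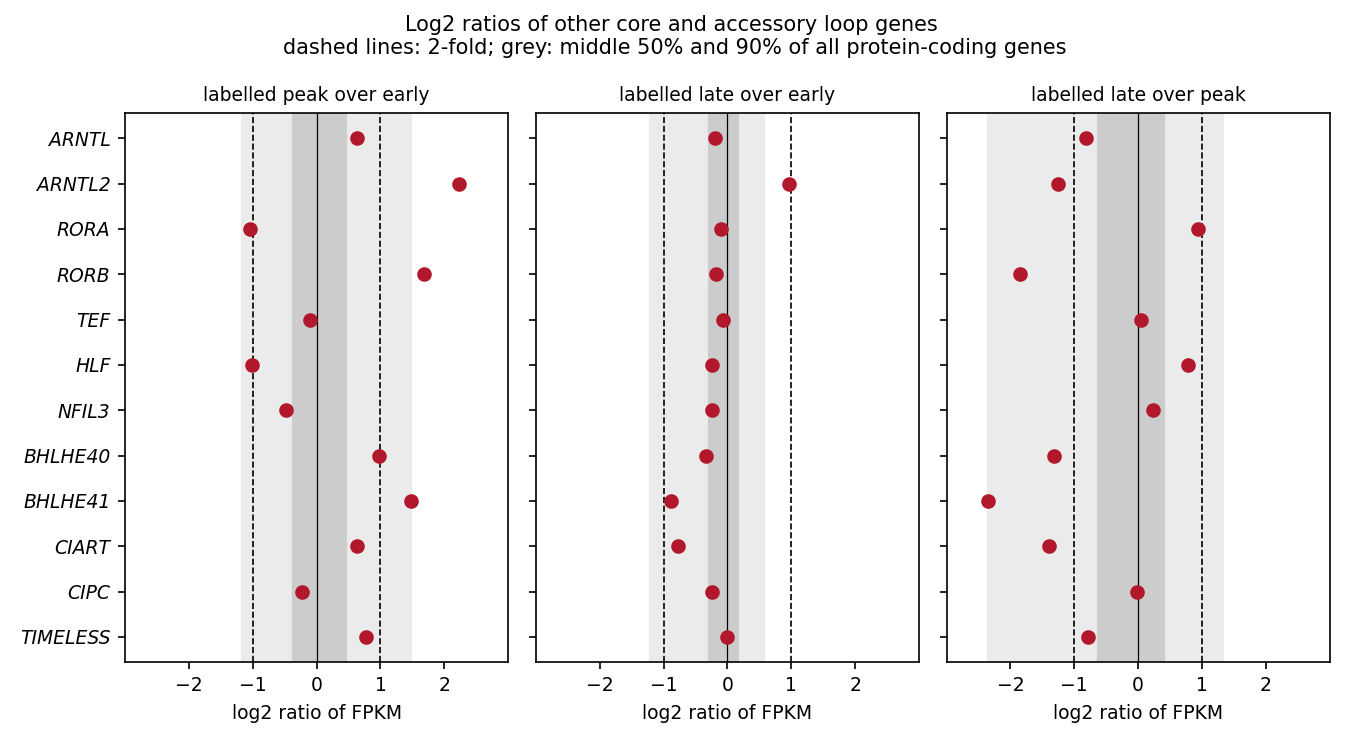
Log2 ratios of FPKM of 12 other core and accessory loop genes (points) in the 3 comparisons by label, with dashed lines at a 2-fold difference and grey bands for the middle 50% (dark) and 90% (light) of all protein-coding genes. In peak over early ARNTL2, RORB and BHLHE41 lie above 2-fold and RORA and HLF below, in late over early no point is past a line, and in late over peak 5 points lie below.

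Further genes set the stability of the PER and CRY proteins. Of 14 listed kinase, ligase, deubiquitinase and deacetylase genes, 12 had values (CSNK1E and FBXL21 were not matched). In peak over early 0 of them were past 2-fold and in late over peak 0, where the background was 17.7% and 25.9%. CSNK1D, the casein kinase that marks PER proteins for degradation, had 16.5, 15.0 and 12.5 FPKM in the early-, peak- and late-labelled libraries. USP2, a deubiquitinase whose mRNA cycles in many tissues, had 0.761, 0.642 and 0.347 FPKM and was the 1 gene of the list past the limit in late over early, with a log2 ratio of -1.13 and a background of 8.71%. Like NR1D1 and PER3, it was lowest in the late-labelled library at under 1 FPKM, where 38.8% of all protein-coding genes had their lowest value.

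Of 10 coregulator genes (among them NCOR1 and HDAC3, which the REV-ERB receptors recruit), 0 were past 2-fold in peak over early, 1 in late over early and 0 in late over peak, where 17.7%, 8.71% and 25.9% of all protein-coding genes were. NCOR1 had 20.4, 21.3 and 20.9 FPKM in the early-, peak- and late-labelled libraries. PPARGC1A, a coactivator of the ROR receptors, had 0.754, 1.35 and 1.64 FPKM, with a log2 ratio of late over early of 1.12. Among 12 output genes that cycle in many tissues, some of them shared with the lists above, 3 were past 2-fold in peak over early (NOCT, HLF and BHLHE41), 1 in late over early (USP2) and 2 in late over peak (BHLHE41 and CIART), against the same background shares. NOCT, a clock-controlled gene known as Nocturnin, had 3.97, 1.36 and 2.16 FPKM and was, with HLF, lower in the peak-labelled than in the early-labelled library.

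Of the clock genes with at least 1 FPKM in each library, NPAS2 had the widest range. Among 11087 protein-coding genes with at least 1 FPKM in each library, those with the most similar log2 ratios of peak over early and late over early were FNDC4, LOC102169972 and HEY1, at distances of 0.00, 0.01 and 0.03 log2 units from NPAS2. FNDC4 had 24.4, 14.0 and 33.1 FPKM, and HEY1 had 2.52, 1.44 and 3.36 FPKM. This likeness is over 3 libraries only, and 140 genes lay within 0.2 log2 units of NPAS2.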

How the data were processed

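Each library was made from the mixed RNA of 5 goats with a stranded TruSeq kit. The authors trimmed the reads with Trimmomatic, mapped them with TopHat2 2.0.9, assembled and merged transcripts with Cufflinks 2.1.1 and Cuffmerge, and deposited FPKM values from Cuffdiff, 1 column per library, with 0 other per-sample columns. Of 63506 deposited values with 7 digits, 97.5% ended in 5, as means of a pair of 6-digit values would, and whether each value is such a mean is not given in the sources used here. The deposited file does not name the assembly of its scaffolds, and whether it is the goat genome given in the methods was not settled here.

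Columns were assigned by the labels. Loci with 1 gene ID were summed per gene, and symbols came from the ARS1.2 gene table, which matched all 10 clock genes by symbol. Ratios were taken from FPKM with 0 set to 0.001 and called at a fold of 2, with no test, since each stage has 1 library and FPKM are not read numbers. Depth per gene is unknown. The background is all protein-coding genes above 0 in either library compared. Named were all 10 clock genes, 7 other loop genes (ARNTL, RORA, NFIL3, TEF, HLF, BHLHE40, BHLHE41) whatever their values, listed genes past 2-fold, the 3 genes nearest to the widest-ranging clock gene and the nearest and farthest clock gene pairs. CSNK1D, NCOR1, ZBTB16, SGK1, ERRFI1 and those in the other observations that were under 2-fold were named after their values were seen. The clock genes, lists and comparisons were chosen with earlier results of these data known. Other lists were genes responding to glucocorticoid, cAMP (immediate early) and temperature, and markers of secretory, luminal, basal, adipocyte, endothelial, leukocyte, fibroblast and erythroid cells. Promoter motifs were not analysed here, and 2 genes of the lists are not reported here. Fold counting was tested on simulated data. Alternatives were other folds, pseudocounts, filters, scalings, single loci and exchanged columns. Python 3.11.15, numpy 2.4.6, pandas 2.3.3 and matplotlib 3.10.9 were used.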

Additional observations from a re-analysis of the deposited data

How the results depend on the processing

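At a fold of 1.5 the clock genes past the limit numbered 4 for peak over early, 2 for late over early and 5 for late over peak. The shares of all protein-coding genes were 36.8%, 17.8% and 44.0%. At a fold of 4 the clock genes numbered 0 in each, against 3.56%, 3.28% and 8.66%. With 0.1 added to each FPKM, the number for late over early was 0, against 7.48% of all protein-coding genes. It was also 0 with genes under 1 FPKM in both libraries left out, against 5.88%. With 1 added it was 0 for late over early and 0 for late over peak, against 2.13% and 15.2%. Scaling to the FPKM sum without the 20 most abundant loci gave 0 for peak over early, against 20.6%. The median log2 ratio of the clock genes for peak over early, late over early and late over peak was 0.0082, 0.0923 and 0.18 with 1 added, 0.0458, 0.12 and 0.17 when centred on all protein-coding genes, 0.16, 0.23 and 0.19 after division by the FPKM sum, and 0.26, 0.13 and -0.0143 after division by the sum without the 20 loci. With the peak and late columns exchanged it was 0.10, 0.0196 and -0.20, and late over peak reversed to -1.24 for NPAS2, 1.11 for PER3 and 1.32 for NR1D1, and late over early to 0.19 for NR1D1. Of 180 single-gene ratios under the settings without the exchange, 174 kept their sign, and the 6 that did not were at most 0.13 in size as reported. An added FPKM cannot turn a sign, and taking single loci changes nothing where each gene has 1 locus. The signs under those settings were thus fixed in advance, and only centring and division by a sum could turn one. The difference between loop-driven genes and activators was -1.10, -1.08 and -1.44 with CLOCK alone and 0.32, 0.33 and -0.0033 with ARNTL added, in the early-, peak- and late-labelled libraries, settings chosen after seeing the data. Also chosen then, for the 12 other loop genes, were a fold of 4, an added FPKM of 1 and the exchange. A fold of 4 left 1 for peak over early and 1 for late over peak, against 3.56% and 8.66% of all protein-coding genes. An added FPKM of 1 left 2 and 2, against 9.17% and 15.2%. The exchange gave 0 for peak over early and 5 for late over early, against 8.71% and 17.7%. The causes were not tested beyond the stricter settings calling fewer genes by construction. Precision is limited by 1 library per stage and unknown depth, most for NR1D1 and PER3 near 1 FPKM. No paired analysis was possible because the stages have 1 pooled library each.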

Other observations

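Genes outside the clock that are known to feed into it were also read from the libraries. Of 7 cAMP and immediate early response genes (FOS, FOSB, JUNB, EGR1, NR4A1, ATF3 and CREM), 5 were at least 2-fold lower in the late-labelled than in the early-labelled library, against 6.74% of all protein-coding genes in that direction. FOS had 42.1, 19.9 and 10.2 FPKM in the early-, peak- and late-labelled libraries, and FOSB had 3.59, 0.464 and 0.339 FPKM. JUNB had 18.6, 43.9 and 8.68 FPKM and was thus highest in the peak-labelled library. The listed locus of JUNB spans only 485 nt, against 3421 nt for FOS, so its FPKM is uncertain. JUNB is among the genes of this list past 2-fold in each comparison. In peak over early 3 of the 7 were past 2-fold and in late over peak 2 were, where the background was 17.7% and 25.9%.

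Of 10 glucocorticoid response genes, 9 had values (MT2A was not matched), and 1 differed at least 2-fold in each comparison, where the background was 17.7%, 8.71% and 25.9% for peak over early, late over early and late over peak. This was FKBP5 in both comparisons with the peak-labelled library. PDK4, which encodes a kinase that limits glucose oxidation, was the other one, with 30.1, 21.1 and 12.1 FPKM in the early-, peak- and late-labelled libraries. NR3C1, the glucocorticoid receptor gene, had 63.5, 42.0 and 59.7 FPKM. Of 7 temperature response genes, 6 had values (HSPA1A was not matched), and 0 differed at least 2-fold in any comparison, against the same background. CIRBP, a cold-inducible RNA-binding protein gene, had 47.5, 36.0 and 36.8 FPKM.

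Markers of other cell types varied between the same libraries. All 6 secretory markers were at least 2-fold lower in the peak-labelled than in the early-labelled library, and 5 of 6 were at least 2-fold higher in the late-labelled than in the peak-labelled library, with LALBA, listed at 0, the exception. Between early and late, LALBA alone of the 6 differed at least 2-fold. Of 5 adipocyte markers, 3 had values (LEP and FABP4 were not matched), and their sum was 18.1, 5.85 and 6.41 FPKM in the early-, peak- and late-labelled libraries. The sum follows ADIPOQ, at 15.1, 4.10 and 5.69 FPKM. PLIN1 (1.28, 0.836 and 0.468 FPKM) and CIDEC (1.73, 0.917 and 0.247 FPKM) were lowest in the late-labelled library instead. Of the 4 leukocyte markers, PTPRC and MS4A1 were highest in the peak-labelled library. PTPRC had 17.6, 39.9 and 8.08 FPKM and MS4A1 had 0.239, 3.07 and 0.132 FPKM. CD68 was highest there too but close to its level in the early-labelled library, at 3.47, 3.88 and 2.098 FPKM. CD3E went the other way, listed at 0 in the early- and peak-labelled libraries and at 1.43 FPKM in the late-labelled library. The listed loci of CD3E and CD68 overlap 2 and 1 other loci, so their FPKM is uncertain. The 5 basal markers summed to 185, 193 and 169 FPKM, but OXTR among them had 3.83, 1.14 and 5.43 FPKM, at least 2-fold lower in the peak-labelled than in either other library, and KRT5 and TP63 were highest there. The 4 endothelial markers summed to 117, 104 and 126 FPKM. The 4 fibroblast markers summed to 478, 451 and 396 FPKM, with members of opposite direction, COL3A1 at 255, 123 and 220 FPKM and PDGFRA at 13.7, 28.0 and 11.3 FPKM. Of the luminal markers 0 of 4 differed at least 2-fold, and neither erythroid marker was matched. The part of these markers in the clock gene differences was not tested.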
